A study of Homo sapiens with 4 samples.

Results

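Wide ZNF217 peaks, called regions of 3000 bp or more from start to end, were taken from the CUT&Tag peak lists of 2 acute myeloid leukemia lines. The members were chosen by their width alone. The rule kept 722 of 58093 peaks on chromosomes 1 to 22 and X, made up of 540 of 36356 peaks in MV4-11 and 182 of 21737 in U937. These are 1.49% of the MV4-11 list (95% Wilson interval 1.37 to 1.61) and 0.837% of the U937 list (0.725 to 0.967). The study labels 4 untreated samples, 1 ZNF217 library and 1 IgG library for each line, and the 2 IgG samples were not analysed here. MV4-11 and U937 are established human leukemia lines of monocytic character, and MV4-11 carries a KMT2A fusion while U937 carries a PICALM fusion. With 1 library per line there are no replicates, so no p-value was calculated and every interval covers counting error only. Depth is unknown because the lists hold positions without read counts or heights.

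ZNF217 is a zinc finger protein that binds DNA and works with corepressors such as CtBP. In CUT&Tag an antibody brings a transposase to the protein of interest, and the tagged fragments pile up around its sites. A peak caller joins neighbouring enriched positions, so a very wide peak can stand for a long stretch of signal or for several close sites that were not separated. In myeloid cells, long stretches of transcription factor signal are well known over super-enhancers and over the start regions of highly used genes.

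The 300 bp stretches below show the kind of sequence that lay under the wide peaks, each inside a wide peak of both lines or of U937. The first 4 are promoters from RefSeq (GRCh38.p14, from 250 bases before to 50 after the start, printed along the gene). The last 2 are the middle of the stretch common to both lines at sites away from protein-coding promoters, on the plus strand of hg38. Capitals mark CpG dinucleotides. GFI1 (chr1:92486876-92487175, minus strand) and IER2 (chr19:13150161-13150460, plus strand) lay under wide peaks in both lines. HOXA7 (chr7:27156626-27156925, minus strand) and HOXA9 (chr7:27165488-27165787, minus strand) lay under wide peaks in U937 and under none of that width in MV4-11. The region upstream of SPI1 is chr11:47393151-47393450, and the region in an intron of AHRR is chr5:372527-372826.
GFI1 promoter: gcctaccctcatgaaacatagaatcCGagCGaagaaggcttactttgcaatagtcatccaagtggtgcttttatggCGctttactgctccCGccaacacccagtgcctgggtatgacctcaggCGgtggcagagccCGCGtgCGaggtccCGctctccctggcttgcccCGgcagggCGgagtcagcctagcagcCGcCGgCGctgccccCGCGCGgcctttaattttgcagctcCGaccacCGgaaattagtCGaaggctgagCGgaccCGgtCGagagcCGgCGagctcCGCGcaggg
IER2 promoter: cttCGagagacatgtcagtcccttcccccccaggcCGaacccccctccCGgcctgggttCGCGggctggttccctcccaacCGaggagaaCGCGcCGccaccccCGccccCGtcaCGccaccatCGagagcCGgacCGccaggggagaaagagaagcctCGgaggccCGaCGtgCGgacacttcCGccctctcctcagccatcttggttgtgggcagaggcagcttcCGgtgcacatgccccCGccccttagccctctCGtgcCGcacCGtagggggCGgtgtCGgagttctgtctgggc
HOXA7 promoter: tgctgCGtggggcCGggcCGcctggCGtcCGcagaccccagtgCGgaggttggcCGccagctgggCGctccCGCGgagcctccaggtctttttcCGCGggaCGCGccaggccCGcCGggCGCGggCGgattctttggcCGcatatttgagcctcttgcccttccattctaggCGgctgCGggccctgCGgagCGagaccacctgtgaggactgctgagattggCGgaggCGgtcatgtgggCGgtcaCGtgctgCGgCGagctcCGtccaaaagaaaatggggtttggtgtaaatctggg
HOXA9 promoter: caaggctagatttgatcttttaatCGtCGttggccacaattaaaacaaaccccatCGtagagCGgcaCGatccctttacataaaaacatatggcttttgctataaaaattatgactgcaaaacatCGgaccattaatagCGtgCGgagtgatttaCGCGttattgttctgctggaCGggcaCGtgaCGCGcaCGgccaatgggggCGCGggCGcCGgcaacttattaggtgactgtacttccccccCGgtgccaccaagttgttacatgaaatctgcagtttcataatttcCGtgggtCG
SPI1 upstream region: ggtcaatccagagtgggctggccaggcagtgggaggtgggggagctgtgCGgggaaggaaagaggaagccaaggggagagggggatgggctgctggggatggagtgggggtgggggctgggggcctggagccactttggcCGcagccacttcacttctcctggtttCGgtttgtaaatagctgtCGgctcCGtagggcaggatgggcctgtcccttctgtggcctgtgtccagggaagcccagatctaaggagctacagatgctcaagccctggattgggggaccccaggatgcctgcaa
AHRR intronic region: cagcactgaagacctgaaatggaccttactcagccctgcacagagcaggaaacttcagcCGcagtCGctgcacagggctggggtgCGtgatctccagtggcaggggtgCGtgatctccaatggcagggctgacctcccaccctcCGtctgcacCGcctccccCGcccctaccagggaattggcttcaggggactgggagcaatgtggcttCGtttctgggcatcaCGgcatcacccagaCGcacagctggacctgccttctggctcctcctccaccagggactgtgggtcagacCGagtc
The promoter stretches held 27, 27, 31 and 22 CpGs in the order shown, against 5 upstream of SPI1 and 11 in the AHRR intron. The same contrast ran through the members as a whole. The CpG ratio, observed over expected CpG given the base content, had a median of 0.543 in the 408 wide MV4-11 peaks over the transcription start site (TSS) of a protein-coding gene and 0.342 in the 132 over none. In U937 the medians were 0.635 in 125 peaks and 0.320 in 57. GC content differed less, with medians of 62.2% and 58.0% in MV4-11 and 62.7% and 58.3% in U937.

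The width that chose the members is given as a description. Wide MV4-11 peaks ran from 3007 to 10045 bp with a median of 3607.5 bp, and wide U937 peaks from 3005 to 8776 bp with a median of 3398.5 bp. They held 2.15 Mb, or 7.09% of all peak bases, in MV4-11 and 0.662 Mb, or 3.59%, in U937. Just inside the threshold in MV4-11 were peaks of 3007 bp at or nearest to SLC25A39 and of 3008 bp at IRX5 and BCR, and just outside were peaks of 2997 bp at PTPA and PTBP1 and of 2998 bp in ENSG00000268797. In U937 the members just inside measured 3005 bp at HIVEP3, 3007 bp near BID and 3009 bp at IRX5. Those just outside measured 2986 bp at ARAP1, 2987 bp near SIGLEC8 and 2997 bp near TMEM187. The midpoints of the peaks near BID, SIGLEC8 and TMEM187 lay between genes. IRX5, a homeobox factor, thus sat at the edge of the rule in both lines, with over 95% of each peak in common (95.8% in both).

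The location of wide peaks relative to gene starts depended on how a start was defined. The midpoint lay within 1 kb of a protein-coding TSS in 338 of 540 wide MV4-11 peaks (62.6%, 58.4 to 66.6), beside 37.2% of all MV4-11 peaks. In U937 this held for 104 of 182 (57.1%, 49.9 to 64.1), beside 46.5% of all U937 peaks. The remaining midpoints fell in exons (24 in MV4-11, 4 in U937), introns (79 and 33) and between genes (99 and 41). A wide peak also reaches further, and 408 wide MV4-11 peaks (75.6%, background 30.3%) and 125 wide U937 peaks (68.7%, background 38.9%) covered a protein-coding TSS at any place. Starts of 2 or more protein-coding genes lay under 110 of the 540 wide MV4-11 peaks (20.4%, background 4.59%) and 22 of the 182 in U937 (12.1%, background 6.28%). Starts of lncRNAs lay under 152 (28.1%, background 8.64%) and 62 (34.1%, background 11.0%). Peaks of 2 to 3 kb covered starts of 2 or more genes in 15.9% and 14.0%, the latter above the share of wide U937 peaks. The intervals of the 2 classes overlapped in each line. For lncRNA starts these peaks stood at 23.7% (21.5 to 26.0) and 23.5% (20.5 to 26.7). The interval of wide peaks overlapped this in MV4-11 (24.5 to 32.1) and lay above it in U937 (27.6 to 41.2). When only the first base of each gene was used as its TSS, the midpoint share was 36.5% in MV4-11 (32.5 to 40.6, background 24.0%) and 36.3% in U937 (29.6 to 43.5, background 33.4%). Within 500 bp of any TSS it was 44.3% (40.1 to 48.5, background 31.6%) and 41.8% (34.8 to 49.0, background 41.1%). Under both of these definitions the U937 background lay inside the interval of the wide peaks, so no excess of midpoints at promoters was seen there. The midpoint of a wide peak can lie outside these windows while the peak still covers a start, so these 2 definitions do not decide about cover.

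By the midpoint, promoter location was not most frequent among the widest peaks. Peaks of 2 to 3 kb, just below the threshold, had their midpoint near a TSS in 67.4% of cases in MV4-11 (64.9 to 69.8) and 64.8% in U937 (61.2 to 68.2). Peaks under 1000 bp had it in 28.8% and 38.6%. The intervals of the 2 to 3 kb class and of the wide class overlapped in both lines, while both lay above those of peaks under 1000 bp. By cover of a TSS at any place, wide peaks stood at 75.6% (71.8 to 79.0) beside 68.9% (66.4 to 71.3) at 2 to 3 kb in MV4-11, and at 68.7% beside 66.6% in U937, where the intervals overlapped.

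**Figure D1:**
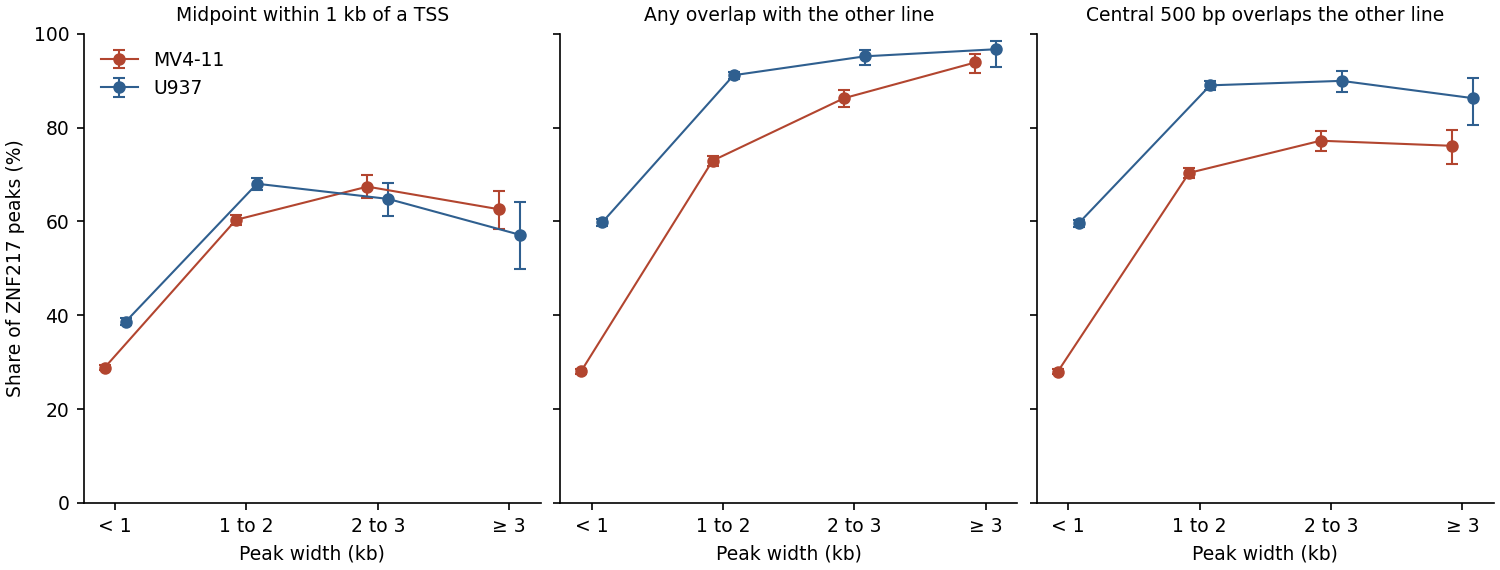
Share of ZNF217 peaks (y axis, %) by peak width in kb (x axis) with the midpoint within 1 kb of a TSS, with any overlap with the other line, and with the central 500 bp overlapping a peak of the other line. Points are shares per line and bars 95% Wilson intervals (counting error only). The promoter share was 62.6% in MV4-11 and 57.1% in U937 at 3 kb or more, and central overlap 76.1% and 86.3%.

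Nearly all wide peaks met a peak of the other line. Of the wide MV4-11 peaks, 507 of 540 (93.9%, 91.5 to 95.6) overlapped a U937 peak by at least 1 bp, beside 40.4% of all MV4-11 peaks. Of the wide U937 peaks, 176 of 182 (96.7%, 93.0 to 98.5) overlapped an MV4-11 peak, beside 68.6% of all U937 peaks. Width itself gives more room to overlap, so the central 500 bp of each peak was compared as well. It met a peak of the other line in 76.1% of wide MV4-11 peaks (72.3 to 79.5, background 39.2%) and 86.3% of wide U937 peaks (80.5 to 90.5, background 67.7%). Central overlap in peaks of 2 to 3 kb was 77.2% (74.9 to 79.3) and 90.0% (87.5 to 92.0), and the intervals of the 2 classes overlapped in each line.

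The wide peaks away from promoters were also mostly shared. In MV4-11, 189 of 202 wide peaks with a midpoint outside promoters (93.6%, 89.3 to 96.2) overlapped a U937 peak, beside 25.5% of the narrower MV4-11 peaks outside promoters. In U937 it was 73 of 78 (93.6%, 85.9 to 97.2), beside 51.5%. At promoters the shares were 94.1% for wide MV4-11 peaks and 99.0% for wide U937 peaks, beside 63.7% and 87.8% of narrower ones. The part of greater width in these gaps was not tested outside promoters.

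Overlap did not mean equal extent. In MV4-11, 54.4% of the bases of wide peaks also lay under U937 peaks, and in U937 76.0% of them lay under MV4-11 peaks, while all narrower peaks had 38.5% and 64.5%. Peaks of 2 to 3 kb had 54.5% and 75.1% in common, so the values of wide peaks were not particular to them. The median peak had 56.4% of its bases in common in MV4-11 (quartiles 35.3 and 74.9) and 88.7% in U937 (64.8 and 98.5). At least 50% of the peak was in common in 314 MV4-11 peaks (58.1%, background 32.5%) and 151 U937 peaks (83.0%, background 61.4%). The whole peak was in common in 11 (2.04%, background 7.42%) and 37 (20.3%, background 27.2%), which is lower than among all peaks. A reciprocal overlap of 50% was met by 38.7% of wide MV4-11 peaks (background 27.7%) and 65.4% of wide U937 peaks (background 46.3%). Peaks of 2 to 3 kb met it in 50.7% (48.1 to 53.3) and 68.6%, and the interval of the wide MV4-11 peaks (34.7 to 42.9) lay below the first of these.

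A wide MV4-11 peak corresponded in 89 cases to a wide U937 peak (16.5%, 13.6 to 19.8, beside 0.688% of all MV4-11 peaks). It met a single U937 peak under 3000 bp in 198 cases (36.7%), several in 220 (40.7%) and none in 33 (6.11%). In U937 the order was different, with 91 peaks meeting a wide MV4-11 peak (95% interval 42.8 to 57.2% of the list, beside 3.66% of all U937 peaks), 26 a single narrower one (14.3%), 59 several (32.4%) and 6 none (3.30%). The bases in common were 84.8% and 95.6% where both lines had a wide peak, 46.7% and 41.4% with a single narrower peak, and 54.5% and 67.7% with several. The lists are unequal in length. When each line gave its 182 widest peaks, the share that met one another was 23.1% in MV4-11 and 24.2% in U937.

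**Figure D2:**
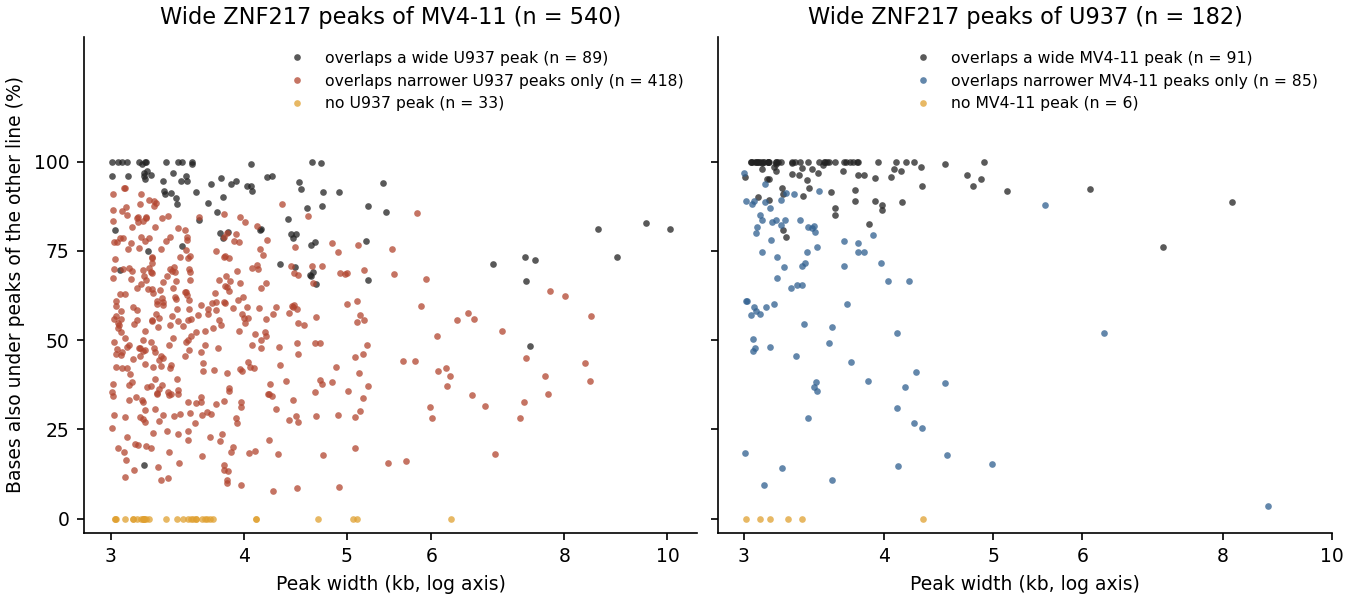
Each point is 1 wide ZNF217 peak, with its width in kb on a log axis and the share of its bases also under peaks of the other line (y axis, %). Colors give what it met in the other line. The 89 MV4-11 and 91 U937 peaks that met a wide peak lie mostly near the top, with 84.8% and 95.6% of their bases in common, and the 33 and 6 peaks that met none lie at 0.

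Narrower peaks of the other line, here those narrower than the wide peak itself, often lay wholly inside it. Of the 540 wide MV4-11 peaks, 245 held 1 U937 peak, 144 held 2, 30 held 3, 4 held 4 and 117 held none, so 178 (33.0%, 29.1 to 37.0) held 2 or more, beside 0.861% of all MV4-11 peaks and 7.63% of those of 2 to 3 kb. Of the 182 wide U937 peaks, 58 held 1 MV4-11 peak, 19 held 2, 1 held 3 and 104 held none, so 20 (11.0%, 7.23 to 16.4) held 2 or more, beside 0.285% of all U937 peaks and 3.25% of those of 2 to 3 kb. Counted by the midpoint of the inner peak, the shares with 2 or more were 42.0% in MV4-11 (background 1.42%) and 31.9% in U937 (background 1.14%). A wider peak has more room for whole peaks, so these gaps follow in part from the width that chose the members. Among peaks under 1000 bp, 0 of 27036 in MV4-11 and 0 of 15738 in U937 held 2 or more whole peaks. Where a wide peak met several peaks of the other line and none of them wide, the largest gap between them had a median of 705.5 bp in MV4-11 (220 peaks, 340 to 3745 bp) and 509 bp in U937 (59 peaks, 287 to 2156 bp).

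The members with the most peaks of the other line inside were RARA, the ribosomal DNA of chromosome 21, IRF2BP2 and BBC3 in MV4-11, with 4 U937 peaks each. RARA, the retinoic acid receptor alpha, lay under 8470 bp in MV4-11 (chr17:40316473-40324943), of which 56.7% was in common with U937. IRF2BP2, a corepressor, had 6497 bp with 57.5% in common, and BBC3, which encodes the cell death protein PUMA, had 6093 bp with 41.4%. The 6 widest of the 30 that held 3 were those at STX10 and IER2, the AHRR intron, SLC16A3, ARHGDIA, a second ribosomal DNA stretch and EEF2. In U937 HOXA13 held 3 MV4-11 peaks within 4269 bp, of which 41.0% was in common. Of the 19 that held 2, the 9 widest lay at HOXA10 and HOXA9, MEIS1, RIN3, LSP1, FAAP100, BCL6 and RALGDS and at sites nearest to CTSD and SLC38A10.

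**Figure D3:**
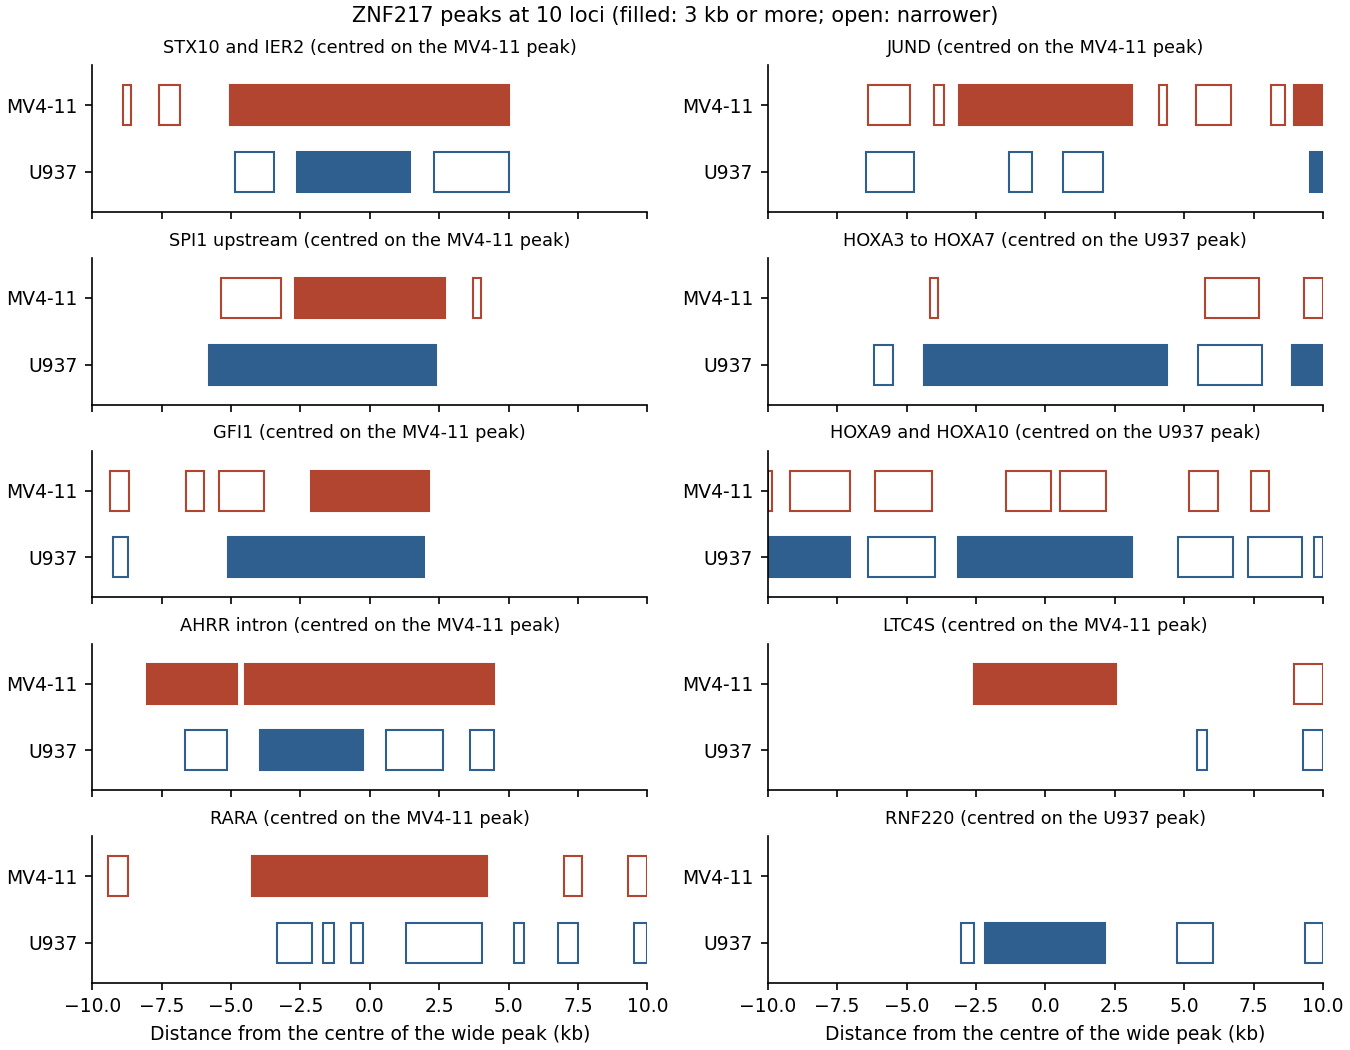
ZNF217 peaks of MV4-11 and U937 within 10 kb of the centre of a wide peak at 10 loci (x axis, distance in kb). Filled boxes are peaks of 3 kb or more and open boxes narrower ones. RARA shows 1 MV4-11 peak of 8470 bp over 4 U937 peaks, HOXA3 to HOXA7 shows 1 U937 peak of 8776 bp over 1 MV4-11 peak of 313 bp, and LTC4S and RNF220 have no peak of the other line under the wide one.

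The wide peaks that both lines had in common formed 91 pairs. The U937 peak lay inside the MV4-11 peak in 37 pairs and the MV4-11 peak inside the U937 peak in 11. MV4-11 was the wider in 61 and U937 in 30. Starts differed by a median of 243 bp and ends by 225 bp, and 23 starts and 25 ends lay within 100 bp. Both midpoints were at a promoter in 52 pairs, and 18 pairs covered no protein-coding TSS. Over the 91 pairs the widths had a Spearman rho of 0.445 and a Pearson r of 0.300, given as a description of points that share the same sequence and the same threshold.

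The pair with the most bases in common had no protein-coding start under it. It lay upstream of SPI1, which encodes the myeloid master factor PU.1, at chr11:47390759-47396170 in MV4-11 and chr11:47387684-47395842 in U937, with 5083 bp in common. The MV4-11 peak covered the start of a lncRNA, SLC39A13-AS1. The midpoint of the U937 peak was 13217 bp from the SPI1 start, while that of the MV4-11 peak was nearest to SLC39A13, at 13667 bp. At the SPI1 start itself the U937 peak was 3263 bp and the MV4-11 peak 886 bp. The next pairs were at SSBP4 (4905 bp in common), RNF44 (4718 bp), the block of CLDN6, TNFRSF12A, HCFC1R1 and THOC6 (4632 bp), APRT (4569 bp), CCND3 (4496 bp), and RPL36 (4252 bp). CCND3, cyclin D3 of the G1 phase, had 4920 bp in MV4-11 with 91.4% in common and 4530 bp in U937 with 99.2%. The pairs at H2AC19 and H3C15 (4249 bp) and at H3C14 and H2AC18 (4181 bp) lie in near-identical copies of the same histone gene block, so reads could not be placed with certainty and these values are uncertain. ZBTB7B, a zinc finger repressor, closed the group with 4105 bp in common.

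Other members of the widest group varied in how much they had in common. Among the widest MV4-11 peaks, GAPDH, a glycolytic enzyme, had 8603 bp with 81.1% in common and TPI1, another, had 7363 bp with 45.0%. CHMP2A and UBE2M shared 8358 bp (43.5% in common), ABCA2 and FUT7 7765 bp (63.7%), and PPAN, P2RY11 and EIF3G 7421 bp (48.3%). FTL, the ferritin light chain, and GYS1 shared 7671 bp. SLC16A3, a lactate transporter, had 8021 bp (62.4%). In U937, RNF44 had 5148 bp with 91.6% in common and PRKCD, protein kinase C delta, 4799 bp with 93.2%. SLC38A10 had 4992 bp with 15.2% and TNRC18 4551 bp with 17.7%.

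The largest numbers of starts under 1 peak were 4. They were ZFTRAF1, ENSG00000291316, TMEM276 and KIFC2 in MV4-11 (6014 bp, 28.1% in common), the CLDN6 block in both lines, and the histone genes H2BC21, H2AC20 and H2AC21 with BOLA1, with 4469 bp in MV4-11 and 3152 bp in U937. In U937 3 starts each lay under the peaks at HOXA6, HOXA3 and HOXA7, at ETFB, CLDND2 and ENSG00000269403, and at DDIT3, MBD6 and ENSG00000285133.

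Only 33 wide MV4-11 peaks and 6 wide U937 peaks met no peak of the other line. The widest in MV4-11 was 6259 bp between genes, 69374 bp from the LINGO1 start. It was followed by LTC4S, the leukotriene C4 synthase of myeloid cells (5108 bp), DIPK1B (5062 bp), TYMP and ODF3B (4694 bp), WFIKKN1 (4107 bp), PITX1 (4106 bp), a site 8119 bp from TNFRSF14 (3745 bp), an intron of TPPP (3723 bp), IGF2BP2 (3699 bp) and a site 10047 bp from CXXC5 (3681 bp). In U937 all 6 were RNF220 (4327 bp), a site 47354 bp from DLK1 (3380 bp), an intron of PTPRN2 (3286 bp), a site 80230 bp from CEBPB (3168 bp), a site 7616 bp from BMI1 (3100 bp) and ACSS1 (3014 bp). A missing peak says only that none was called at the depth of that library.

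Counted by gene, 520 of 19970 protein-coding genes had a TSS under a wide peak in MV4-11 (2.6%) and 149 in U937 (0.746%), and 90 had one in both. Of the U937 genes 60.4% (52.4 to 67.9) were also under a wide MV4-11 peak. Of the 430 genes under a wide peak in MV4-11 only, 358 had a narrower U937 peak over a TSS, with a median of 1558 bp against 3678.5 bp in MV4-11. Of the 59 in U937 only, 55 had a narrower MV4-11 peak, with a median of 1903 bp against 3369 bp in U937. The 4 with no MV4-11 peak over a TSS were HOXA3, HOXA7, ACSS1 and ENSG00000273049.

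Below, the width for a gene with several starts is that of the widest peak over any of them, so the lines may differ in the start that is covered. Counts under wide peaks stand beside 2.6% of all protein-coding genes in MV4-11 and 0.746% in U937. Counts at any width stand beside 53.9% of all protein-coding genes in MV4-11 and 45.0% in U937 with any peak over a TSS. The genes that turn on first after a stimulus had the highest share under wide MV4-11 peaks among the lists of 10 genes or more. Of 18 AP-1 and immediate early genes, 9 had a wide peak in MV4-11 (2.6% of all genes) and 3 in U937 (0.746% of all genes), and 17 and 15 had a peak of any width over a TSS. IER2 had 10045 bp in MV4-11 and 4099 bp in U937. JUN, a core subunit of AP-1, had 3192 bp and 3874 bp, and FOSL2, its partner, 3827 bp and 3247 bp. The other members were wide in MV4-11 alone. JUNB had 6351 bp against 2536 bp in U937, JUND 6208 bp against 1462 bp, EGR1 5133 bp against 2100 bp, FOSB 4149 bp against 1559 bp, FOS 3331 bp against 1870 bp and BTG2 3093 bp against 1566 bp. In all 6 the U937 peak lay wholly inside the MV4-11 peak.

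The HOXA cluster showed the opposite. HOXA genes encode homeobox factors that keep blood progenitors immature. Several are high in some leukemias, among them those with KMT2A fusions. Of 11 HOXA genes, 6 had a TSS under a wide peak in U937 and none in MV4-11, beside 0.746% and 2.6% of all genes. A peak of any width lay over a start of 8 of them in U937 and 6 in MV4-11, beside 45.0% and 53.9% of all genes. U937 had 4 wide peaks across the cluster with 23293 bp in all. The widest, 8776 bp over HOXA3, HOXA6 and HOXA7, had 3.57% of its bases in common with MV4-11, which had 1 peak of 313 bp there. The peak at HOXA9 and HOXA10 had 6274 bp with 52.0% in common, and a further U937 peak of 3974 bp held the HOXA9 promoter printed above. MEIS1, the HOX cofactor, had 3708 bp in U937 and 1797 bp in MV4-11. None of the 10 HOXB genes had a wide peak in either line, and nothing is read from none in so short a list. The leukemic stem cell list, which holds some of these genes, had 1 of 16 members wide in MV4-11 and 5 in U937. At any width, 11 and 9 of its members had a peak over a TSS. ZFP36L2, an RNA decay factor, was wide in both lines (4407 bp and 3838 bp).

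Among myeloid transcription factors 3 of 17 were wide in each line, beside 2.6% of all genes in MV4-11 and 0.746% in U937. A peak of any width lay over a TSS of 16 and 13 of them. GFI1, a repressor of myeloid differentiation genes, was wide in both, with 4251 bp in MV4-11 and 7075 bp in U937, of which 96.0% and 76.0% were in common. RUNX1 (3291 bp against 2084 bp) and EGR1 were wide in MV4-11 alone. SPI1 and CEBPB (3066 bp against 2358 bp in MV4-11) were wide in U937 alone. Of the 5 factors that the study placed in its AML circuit, FOXP1 had 3028 bp in MV4-11 and 3250 bp in U937, and MEF2D had wide MV4-11 peaks of 6190 bp and 5863 bp at different starts, the latter over a U937 peak of 2624 bp. ZNF217 itself was below the threshold, with 2892 bp in MV4-11 and 2387 bp in U937, and ELF1 and RUNX2 had 1935 bp and 2220 bp in MV4-11 and 1996 bp and 696 bp in U937. Of 8 other candidate factors of the study, RREB1, RARA, ZBTB7A, CIC and JUNB were wide in MV4-11 and none in U937. A peak of any width lay over a TSS of 7 of these 8 in each line. These lists came from the study, which chose them in such cells, so they are not independent evidence. Of the 5 knockout-responsive genes named in the study, only MYB, a progenitor factor, was wide, with 3504 bp in U937 and 2330 bp in MV4-11. A peak of any width lay over a TSS of 4 of these 5 genes in MV4-11 and 2 in U937. In a list of 11 genes drawn up for ZNF217 partners and corepressors, 0 were wide in MV4-11 and 2 in U937, CTBP1 and LYL1. Of these, 11 and 10 had a peak of any width over a TSS. The study names LYL1 as a super-enhancer gene and not as a ZNF217 partner. It found MEF2D and ELF1 to interact with ZNF217, and these were counted among the circuit factors above. CTBP1, the corepressor that binds ZNF217, had 3795 bp in U937 and 2432 bp in MV4-11.

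Of 17 feedback inhibitors of cytokine and growth signals and PIM kinases, which were listed together, 5 were under wide peaks in MV4-11 and none in U937, and 14 had a peak of any width in each line. SOCS1, an inhibitor of JAK kinases, had 3234 bp against 873 bp in U937, CISH 3244 bp against 1195 bp, and DUSP6, a phosphatase of ERK, 3204 bp against 1120 bp. The PIM kinases promote growth and survival rather than damp signals, and of these PIM3 had 3878 bp against 966 bp and PIM2 had 3546 bp with no U937 peak over a TSS. None of the 15 cytokine receptors and none of the 12 NF-kB subunits and inhibitors had a wide peak in either line. A peak of any width lay over a TSS of 13 and 12 of them in MV4-11. At the 2.6% and 0.746% of all genes under wide peaks, lists of this length can hold none, so nothing is read from this.

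Chromatin regulators were wide for 4 of 25 in MV4-11 and 3 in U937, beside 2.6% and 0.746% of all genes. A peak of any width lay over a TSS of 24 and 19 of them. KMT2A, the histone methyltransferase that is fused in MV4-11, had 3774 bp in MV4-11 and 3241 bp in U937, and every base of the U937 peak was in common. KDM6B, a histone demethylase, had 2 wide peaks over starts in each line, of 4150 bp and 4025 bp in MV4-11 and 3370 bp and 3755 bp in U937, and both U937 peaks lay inside the MV4-11 peaks. TET3 and DOT1L were wide in MV4-11 alone and ARID1A in U937 alone (3168 bp). Histone genes were wide for 8 of 22 in MV4-11 and 4 in U937, and 22 and 19 had a peak of any width over a TSS. All 4 that were wide in U937 (H2AC11, H2BC11, H2AC20 and H2BC21) were wide in MV4-11 too. H1-5 had 3152 bp in MV4-11 and no U937 peak over its TSS. Multigene families such as these share sequence, and reads may be split between copies.

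MYC-linked growth genes were wide for 1 of 19 in each line (PPAN) and respiratory chain subunits for 1 of 27 in each (NDUFB10, 4204 bp and 4139 bp), beside 2.6% and 0.746% of all genes, and at these list sizes nothing is read from a single gene. None of the 20 cell cycle and replication genes had a wide peak, with 19 occupied at any width in each line. A list of this length can hold none at those shares, so nothing is read from it. Of the lists for nuclear receptors, KLF and SP factors, ZBTB and BCL6 repressors and G1 regulators, RXRA (4591 bp and 4081 bp), KLF10 (3212 bp and 3207 bp), ZBTB7B and CCND3 were wide in both lines. NR1H3, PATZ1 and CDK6 were wide in MV4-11 alone.

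None of the 16 monocyte markers had a wide peak in either line, with 7 occupied at any width in each. At the 2.6% and 0.746% of all genes, lists of this length can hold none, so nothing is read from these counts. Of 12 granulocyte markers AZU1, a granule protein, had 4751 bp in MV4-11 and 849 bp in U937. T cell, B cell, NK cell, erythroid and megakaryocyte, neuron and hepatocyte markers and interferon-stimulated genes had none.

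**Figure D4:**
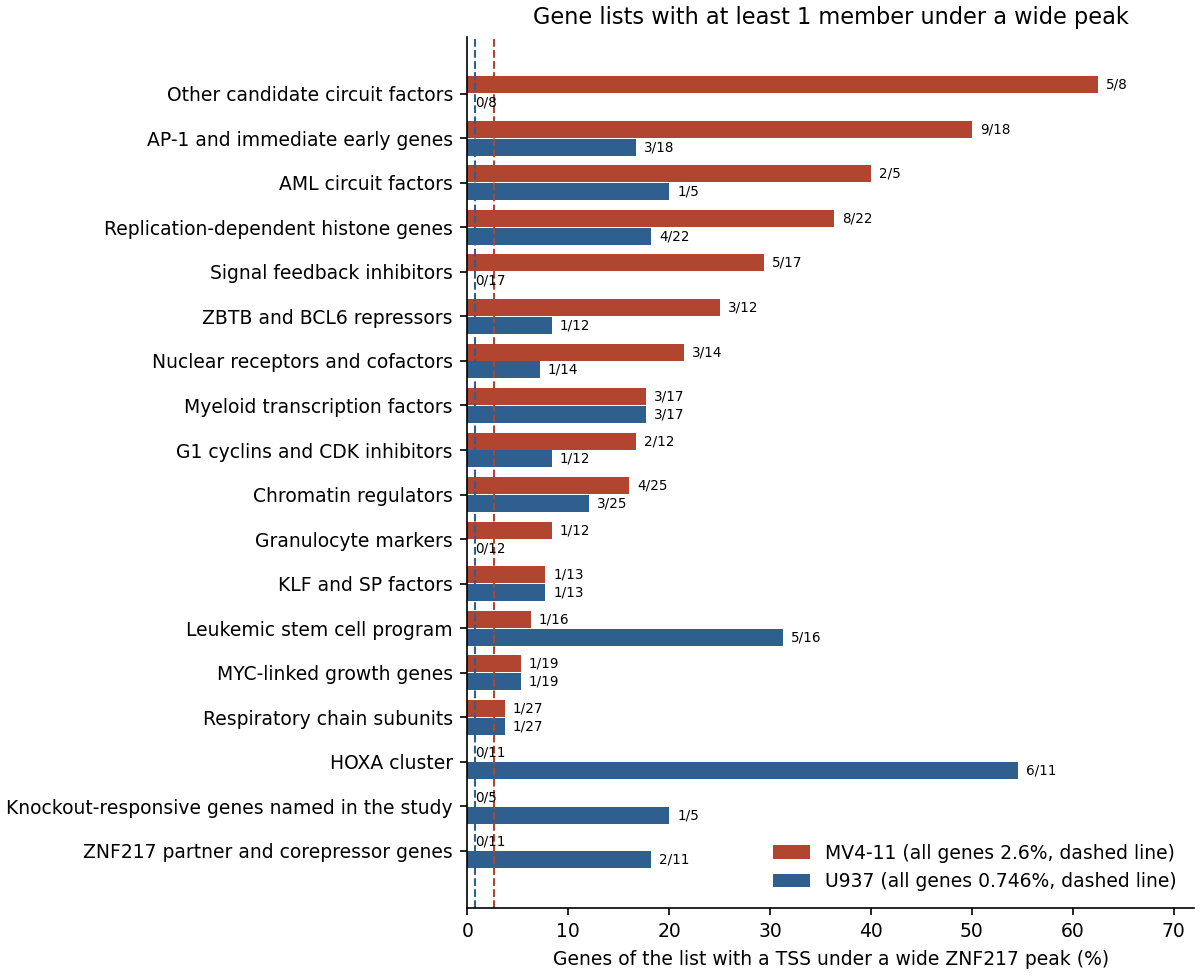
Share of the genes of each list with a TSS under a wide ZNF217 peak (x axis, %) in MV4-11 and U937, with the number of genes over the list size beside each bar. Dashed lines give the share of all protein-coding genes (2.6% and 0.746%), and lists with no member under a wide peak, and 1 list not reported here, are left out. AP-1 and immediate early genes stand at 9 and 3 of 18, and the HOXA cluster at 0 and 6 of 11.

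Measured from the most upstream covered start, wide peaks over the TSS of a single gene reached further into the gene than before it. In the 298 such MV4-11 peaks the median reach was 1284.5 bp upstream and 2421 bp downstream, and 74.8% (69.6 to 79.4) reached further downstream, beside 63.4% of narrower peaks. In the 103 U937 peaks the medians were 1044 bp and 2387 bp, and 74.8% (65.6 to 82.2) reached further downstream, beside 66.4%. Where several starts of the gene lie under a peak, taking the most upstream by itself lengthens the downstream side. Wider peaks have room for more starts, and the part of this choice in the values was not tested. The covered TSS also lay under a peak of the other line in 199 of the MV4-11 cases (66.8%, 61.2 to 71.9) and 99 of the U937 cases (96.1%, 90.4 to 98.5). Bases in common were alike on both sides of the start, 54.5% upstream and 55.2% downstream in MV4-11 and 79.9% and 79.4% in U937.

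**Figure D5:**
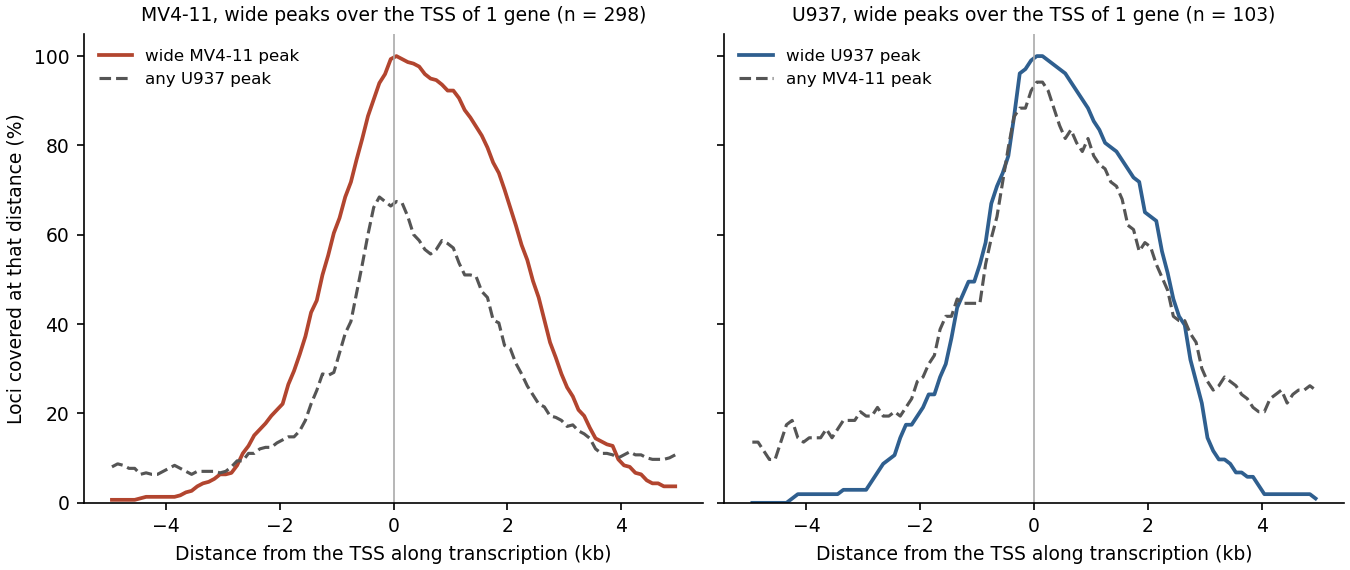
Share of loci covered (y axis, %) at each distance in kb from the TSS along transcription (x axis), by the wide peak of the line (solid) and by any peak of the other line (dashed), for wide peaks over the TSS of 1 gene. There were 298 loci in MV4-11 and 103 in U937, and the solid curves reach further to the right of 0 than to the left. The TSS is the most upstream covered start of the gene, which by itself favours the right side.

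The letters under wide peaks set them apart only in part from narrower peaks. CAGAA, the core of the known ZNF217 site, occurred on both strands at 2.50 per kb in wide MV4-11 peaks and 2.84 per kb in narrower ones, and at 2.42 and 2.62 per kb in U937. In windows of equal length, the central 300 bp, CAGAA was present in 48.5% of wide MV4-11 peaks (44.3 to 52.7) and 55.1% of narrower ones, and in 47.3% (40.1 to 54.5) and 51.6% in U937. GGGCGG, the GC box of SP and KLF factors, was present in 47.4% (43.2 to 51.6) against 31.4% in MV4-11 and 46.7% (39.6 to 53.9) against 38.4% in U937. TGTGGT, the RUNX site, was present in 14.6% (11.9 to 17.9) against 22.2% in MV4-11 and 15.9% (11.3 to 21.95) against 18.1% in U937. TGANTCA, the AP-1 site, in which N is any base, was present in 6.30% (4.54 to 8.67) against 8.95% in MV4-11. In U937 it was present in 7.14% (4.22 to 11.8) against 9.94%, a value inside that interval. Median GC content was 61.5% in wide and 57.1% in narrower MV4-11 peaks and 61.0% and 58.4% in U937, and its part in the motif values was not tested. None of these 4 sets of letters holds another, and they are part of 15 sets that were searched.

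Chromosomes and RNA gene arrays are described here after their values were seen. Chromosome 19 held 97 wide peaks of 3710 in MV4-11 (2.62%, 2.15 to 3.18, beside 1.49% of the whole list) and 14 of 1692 in U937 (0.827%, beside 0.837% of the whole list). Chromosome 16 held 42 of 1959 in MV4-11 (2.14%) and 7 of 1138 in U937 (0.615%). Chromosome 17 held 53 of 2454 (2.16%) and 22 of 1388 (1.59%), and chromosome 20 held 9 of 1200 (0.750%) and 8 of 795 (1.01%). The higher shares on chromosomes 19 and 16 were thus seen in MV4-11 and not in U937, and the difference was not tested. Within 50 kb of each other lay 192 wide MV4-11 peaks in 74 clusters and 41 wide U937 peaks in 18. The largest cluster had 8 peaks in MV4-11, near the end of chromosome 8 with VPS28 and C8orf82 among its genes, and 4 in U937, at HOXA. Copy number of the chromosomes was not analysed here.

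Of the 19 wide MV4-11 peaks on chromosome 21, 9 lay in ribosomal DNA of the short arm, where U937 had 28 peaks with a widest of 1761 bp. A further 2 lay in the 5S RNA genes of chromosome 1 and 3 in the U2 genes of chromosome 17. All 14 met a U937 peak, with 18.0 to 69.9% of their bases in common. These genes stand in tandem copies, so reads could be placed in any of them.

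Hairpins of microRNAs, also chosen after values were seen, lay under wide peaks for 23 of 1558 in MV4-11 and 6 in U937, and 3 were common to both, MIR142, MIR191 and MIR425. MIR142, a microRNA abundant in blood cells, lay under 7510 bp in MV4-11 and 3336 bp in U937, and MIR191 and MIR425 under 3466 bp and 3053 bp. MIR23A, MIR27A and MIR24-2 lay under a U937 peak of 5563 bp, of which 87.9% was in common with MV4-11. The mature sequences from RefSeq are shown for these hairpins with the seed, bases 2 to 8, in capitals. For MIR425 only hsa-miR-425-3p was found, so its other arm is not shown. All 11 seeds found for the 6 hairpins were different.
hsa-miR-142-3p: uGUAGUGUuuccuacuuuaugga
hsa-miR-142-5p: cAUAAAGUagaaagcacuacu
hsa-miR-191-3p: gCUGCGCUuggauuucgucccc
hsa-miR-191-5p: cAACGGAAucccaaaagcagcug
hsa-miR-425-3p: aUCGGGAAugucguguccgccc
hsa-miR-23a-3p: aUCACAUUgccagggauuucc
hsa-miR-23a-5p: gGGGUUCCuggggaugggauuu
hsa-miR-27a-3p: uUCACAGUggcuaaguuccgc
hsa-miR-27a-5p: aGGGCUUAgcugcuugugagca
hsa-miR-24-3p: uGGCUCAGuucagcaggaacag
hsa-miR-24-2-5p: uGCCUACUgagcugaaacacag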

How the data were processed

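ZNF217 was mapped by CUT&Tag in MV4-11 and U937, and groups were taken from the sample titles. The submitters' processing notes name hg38, Bowtie2 2.4.4 and MACS3 3.0. Whether IgG served as control, duplicates were removed or blacklisted regions were excluded is not given in the sources used here. The deposited lists hold no signal (unit: other). The authors gave only the chromosome, start and end of each called peak, with neither score nor read count. Whether starts count from 0 or 1 was not stated, which leaves 1 bp of uncertainty, and positions are printed as deposited.

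Peaks of 3000 bp or more on chromosomes 1 to 22 and X were compared with the other line and with GENCODE 44. Scripts used pysam 0.24.0, pandas 2.3.3, NumPy 2.4.6, SciPy 1.17.1 and Matplotlib 3.10.9 under Python 3.11.15, and were tested on simulated intervals against bedtools 2.31.1. A promoter peak had its midpoint at most 1 kb from the start of a transcript of a protein-coding gene, and other midpoints were assigned to exon, intron or intergenic sequence in that order. Shares have 95% Wilson intervals and densities Poisson intervals. The single library per line allowed no p-value.

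Named genes were those of the 15 widest peaks of each line, the 10 pairs with the most bases in common, the 10 widest peaks without overlap, the 10 with the most narrower peaks inside, the 5 with the most starts, the 3 on either side of the threshold, and up to 6 members per class of each of 31 gene lists. Members and lists were chosen with earlier results of these data known. Alternatives were other thresholds, merging, promoter and overlap definitions, lists of equal length and central windows. Results for 1 gene list and 1 of the widest peaks are not reported here.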

Additional observations from a re-analysis of the deposited data

Results flagged for a closer look

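Sequences outside chromosomes 1 to 22, X and Y entered no comparison. The MV4-11 list had 14 wide peaks among 1196 there (1.17%, 95% Wilson interval 0.699 to 1.96), the widest of 15119 bp, and the U937 list had 3 among 762 (0.394%, 0.134 to 1.15), the widest of 3557 bp. These were flagged because they are a signal in data not otherwise used. Of the 14, 6 lay on unplaced sequences that carry ribosomal DNA and 6 on alternate copies of a locus, and of the 3 in U937 none and 1. The IgG samples were not analysed here, so the level in a control is unknown.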

How the results depend on the processing

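No paired analysis was possible because each line had 1 library and no result came from a test. Of 55 alternative values 14 stayed within the interval of the reported value, or within 1.5 times a count, and 41 moved, where any change in a value without an interval counts as a move. Values are given for MV4-11 and then U937, and the cause was not tested. At 2500 bp there were 968 and 383 wide peaks with 900 and 311 genes, 54.5% and 75.2% of bases in common, and 23.3% of MV4-11 peaks with 2 or more narrower peaks inside. At 4000 bp there were 178 and 34 peaks with 203 and 32 genes, promoter shares of 57.3% and 41.2%, overlap of 96.6% in MV4-11, 54.9% and 66.4% of bases in common, and 53.9% and 20.6% with 2 or more inside. Merging peaks less than 500 bp apart gave 899 and 292 wide peaks with 48.9% and 76.2% of bases in common. Promoter shares were 44.3% and 41.8% within 500 bp, 36.5% and 36.3% with 1 TSS per gene, and 75.6% and 68.7% when the peak covered a TSS. Overlap was 38.7% and 65.4% with reciprocal 50%, and 76.1% and 86.3% for the central 500 bp. With equal numbers of the widest peaks, 23.1% and 24.2% met one another. By midpoint, 42.0% and 31.9% held 2 or more. In the central 500 bp median GC was 63.2% and 61.0% and the CpG ratio 0.495 and 0.507. Leaving out the tandem RNA gene arrays, an alternative chosen after seeing the data, gave 54.7% of bases in common in MV4-11 with 526 peaks and 520 genes.

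The lists carry no read counts, so the depth behind the number and width of the peaks is unknown. The 2 lines differ in the number of peaks called, and line and library cannot be told apart.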
